A study of Caenorhabditis elegans with 2 samples.

Results

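The Caenorhabditis elegans mitochondrial genome carries 36 annotated genes, out of 46926 genes in the Ensembl annotation of WBcel235. They comprise 12 protein-coding genes, 22 tRNA genes and 2 rRNA genes, and all 36 are read from the same strand of a circle of 13794 bp. All genes annotated on the mitochondrial chromosome were taken, whatever their signal. They were examined in a ChIP-seq experiment on HMBX-1, a homeobox protein related to human HMBOX1, which is known for binding telomeric repeats. The single group consisted of whole early embryos of mixed sex from strain OP656, with the genotype unc-119(tm4063) III; wgIs656, collected 45 min after synchronization by egg bleaching. Both samples, which are biological replicates, carry the unc-119 mutation and an integrated transgene encoding HMBX-1 with a C-terminal GFP-FLAG tag; the promoter that drives it is not given in the sources used here. The sample description names an anti-GFP antibody, whereas the antibody field names hmbx-1, and the labels do not settle which was used. Immunoprecipitates from untagged animals or without antibody are not analysed here, so signal owed to the tagged protein and signal owed to the assay cannot be told apart, and no condition is compared with another. All comparisons below are descriptions of regions within the same lists, without a test.

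Mitochondrial DNA encodes membrane-embedded subunits of the respiratory chain and ATP synthase together with the rRNAs and tRNAs used to translate them inside the organelle. The ND genes encode subunits of complex I (NADH dehydrogenase), CYTB encodes cytochrome b of complex III, the COX genes encode the core of complex IV (cytochrome c oxidase), and ATP6 encodes a proton-channel subunit of ATP synthase. The tRNA genes lie between the others and are cut out of long transcripts that cover many genes. The molecule is present in many copies per cell, is not packaged in histones, and in the embryo derives from the egg.

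The summit of a region is the base at which the deposited list places its peak. The 4 summits of highest signal in the replicate-filtered (thresholded) list are shown first, each with 50 bases on either side, because their letters show what kind of sequence carried the strongest signal. The summit in the AT-rich non-coding stretch follows for contrast. Capitals mark the 11 bases centred on the summit. Sequences are the plus strand of the RefSeq copy of WBcel235 (the sequence of ce11), 5′ to 3′, at chrM:5550-5650, chrM:9243-9343, chrM:12403-12503, chrM:9448-9548 and chrM:13686-13786 in the order given.
CYTB: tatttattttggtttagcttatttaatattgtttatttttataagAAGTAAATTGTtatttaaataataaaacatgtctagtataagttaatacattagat
COX1: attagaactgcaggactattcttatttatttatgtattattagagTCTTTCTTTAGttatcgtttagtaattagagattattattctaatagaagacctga
ND5: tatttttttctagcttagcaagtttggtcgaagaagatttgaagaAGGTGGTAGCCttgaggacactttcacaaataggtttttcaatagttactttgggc
tRNA-Met: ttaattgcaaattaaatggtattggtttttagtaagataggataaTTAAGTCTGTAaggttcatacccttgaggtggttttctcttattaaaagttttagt
AT-rich stretch: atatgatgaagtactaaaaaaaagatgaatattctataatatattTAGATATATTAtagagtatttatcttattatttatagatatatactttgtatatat
The 4 strongest windows ranged widely in base composition. The CYTB window had a G+C content of 14.9%, the COX1 window 24.8%, the ND5 window 36.6% and the tRNA-Met window 27.7%. The window in the AT-rich stretch had 13.9%.

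Mitochondrial summits headed the thresholded list. Of its 437 regions, 21 were mitochondrial (4.81%), and they held 26.3% of the summed signal. The signal is the authors' own deposited value and is used to rank regions within a list only. The peak caller is not given in the sources used here, so how this value relates to read counts is not known. The median signal was 1109.5 over the mitochondrial summits, which ran from 126 to 3581. The 416 nuclear summits ran from 95.3 to 688, and their median was 134. The highest mitochondrial value was thus 5.20 times the highest nuclear value, and 14 mitochondrial summits exceeded every nuclear summit. The other 7 lay within the nuclear range, at ranks 19, 26, 62, 102, 160, 233 and 255. All 21 had the highest −log10 q value that occurs in the list, 2.24, so that value does not order them.

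Each replicate showed the same excess in its own relaxed list, which holds peaks together with weaker background regions. The highest mitochondrial value was 2618 and the highest nuclear value 501 in replicate 1, a ratio of 5.23. The corresponding values were 1295 and 266 in replicate 2, a ratio of 4.87. Among the 25 regions of highest signal, 13 were mitochondrial in replicate 1 and 21 in replicate 2, against 15 in the thresholded list. Several of these summits share a span: with overlapping regions merged and counted once, the mitochondrial share of the top 25 in the thresholded list was 12% instead of 60%. The median mitochondrial signal was 846 and the median nuclear signal 23.1 in replicate 1, and the medians were 579 and 17.1 in replicate 2. Relaxed lists hold many weak nuclear regions (25383 and 22887 nuclear regions here, against 416), which lowers the nuclear median. Lists differ in scale, and both replicates were called against a control file that they share.

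**Figure D1:**
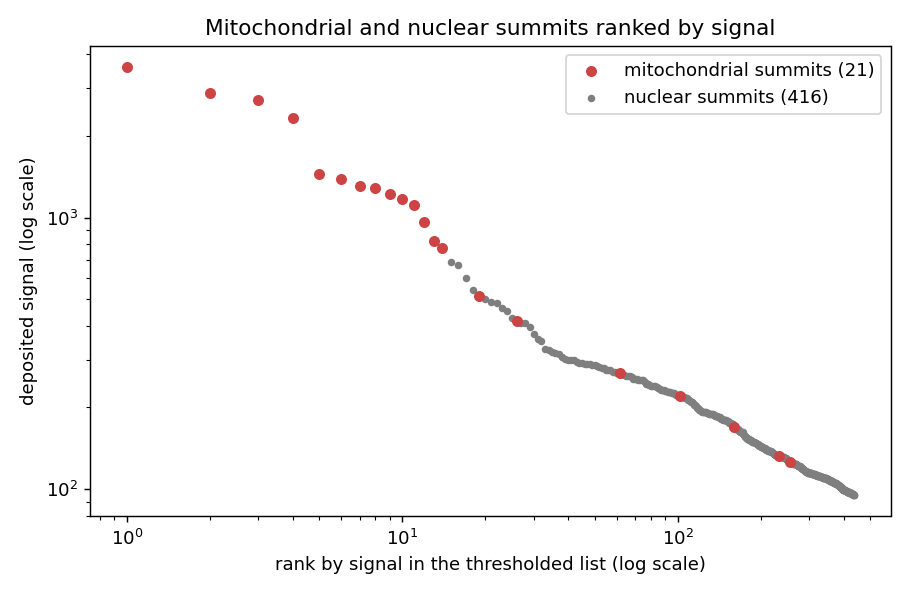
Signal (vertical axis, log scale) of each summit of the thresholded list against its rank in that list (horizontal axis, log scale). Red points are the 21 mitochondrial summits and grey points the 416 nuclear ones; ranks 1 to 14 are all mitochondrial, and the other 7 mitochondrial summits lie among the nuclear ones.

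The mitochondrial regions were broad. The 21 rows of the thresholded list shared only 4 spans of 245 to 5049 bp, within which each row had its own summit and signal. Nuclear regions had a median width of 490 bp and a maximum of 638 bp, and 2 nuclear spans held more than 1 summit. The 4 mitochondrial spans covered 12797 of 13794 bp (92.8%). They overlapped 35 of the 36 genes and contained 30 of them whole, so which gene a region overlaps carries little information, and genes were assigned by summit. Regions covered 70.0% of the genome in replicate 1 and 82.8% in replicate 2. Both replicates covered 8422 bp, replicate 1 alone covered 1232 bp, replicate 2 alone 3002 bp, and neither covered 1138 bp.

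Beside the first base of the circle, the thresholded spans left 3 stretches uncovered. A stretch of 144 bp (chrM:3367-3510) took in most of the tRNA-Ser(AGN) gene and the beginning of ND2. A stretch of 222 bp (chrM:8560-8781) lay inside COX1. Their G+C contents were 23.6% and 29.7%. The longest, of 630 bp (chrM:12920-13549), took in the end of ND5, the whole tRNA-Ala gene and the first part of the AT-rich stretch, and its G+C content was 13.2%, against 23.8% for the whole mitochondrial genome. The tRNA-Ala gene was the only member that no region touched in the thresholded list or in either replicate.

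Counted by summit, 13 of the 36 genes held 1 or more of the thresholded summits: 10 of 12 protein-coding genes, 1 of 22 tRNA genes and both rRNA genes. By the same count, 0.751% of nuclear genes of any type held a thresholded summit, as did 0.746% of nuclear protein-coding genes and 14.1% of the 612 nuclear tRNA genes. The mitochondrial genome is far denser in genes than the nuclear chromosomes, so these shares do not compare equal amounts of sequence. In replicate 1, 12 members held a summit, and in replicate 2, 13 did; 10 members held a summit in both. Over all these lists 15 members did so at least once.

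**Figure D2:**
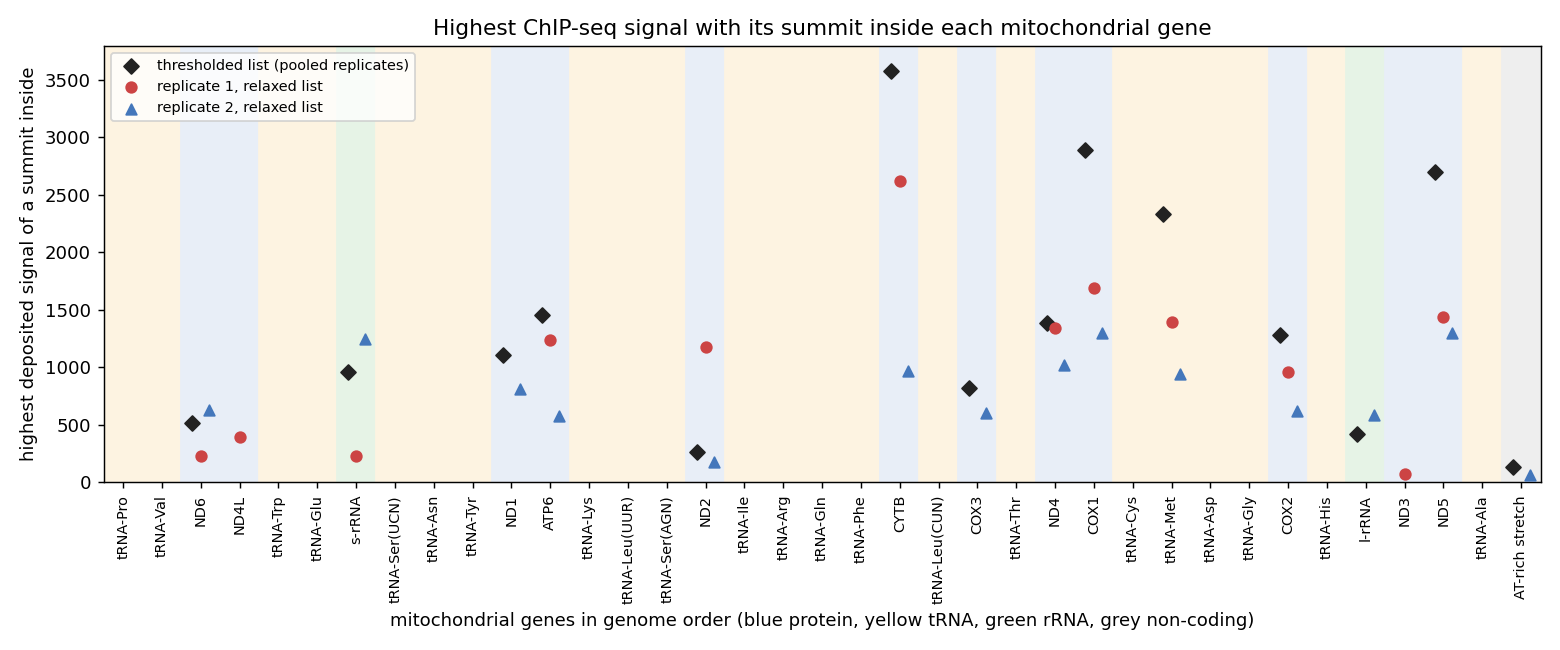
Highest signal (vertical axis) of any summit inside each of the 36 mitochondrial genes and the AT-rich stretch, in genome order (horizontal axis), in the thresholded list (black diamonds), replicate 1 (red circles) and replicate 2 (blue triangles), on each list's own scale. A gene with no marker held no summit; CYTB reached 3581, COX1 2892, ND5 2703 and tRNA-Met 2333 in the thresholded list, and 21 tRNA genes have no marker.

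The share of summits in protein-coding genes lay close to their share of sequence. Protein-coding genes make up 75.7% of the genome and held 16 of 21 thresholded summits (76.2%). The 2 rRNA genes make up 11.9% and held 3 summits (14.3%), the tRNA genes make up 8.55% and held 1 (4.76%), and the AT-rich stretch makes up 3.38% and held 1 (4.76%). None lay in the 63 bp that remain between genes. Protein-coding genes held 16 of 18 summits in replicate 1 (88.9%) and 22 of 28 in replicate 2 (78.6%). In signal, the thresholded median was 1199 over the 16 summits in protein-coding genes, whereas the 3 summits in rRNA genes had values of 219.9, 416 and 963. The contrast was smaller in replicate 2, with medians of 589 in protein-coding genes and 510 over 4 summits in rRNA genes, the highest of them 1246. Replicate 1 had a median of 846 in protein-coding genes and a single rRNA summit with 227.

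The strongest summit of the whole list lay at the 3′ end of CYTB (WBGene00000829; chrM:4504-5621). This gene encodes cytochrome b, which carries electrons between the quinone sites of complex III. The summit, at position 5600, had a signal of 3581 in the thresholded list, 2618 in replicate 1 at the same base and 968 in replicate 2, where it lay 5 bp away. It was 21 bp upstream of the tRNA-Leu(CUN) gene, which starts on the last base of CYTB, and its 101-base window above ends inside that tRNA gene. The summit ranked 1 in replicate 1 and 5 in replicate 2. A further CYTB summit at position 4726 had a signal of 1172; the nearest summit lay 60 bp away in replicate 1 with 494 and 78 bp away in replicate 2 with 966.

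Neighbouring summits through the end of COX1, the tRNA-Met gene and COX2 ranked 2, 4, 8 and 14 in the thresholded list. Ranks 3, 5, 6 and 7 lay elsewhere, in ND5, ATP6, ND4 and again ND5. COX1 (WBGene00010964; chrM:7827-9428) encodes the catalytic subunit of cytochrome c oxidase, and its summit at position 9293, 135 bp from the gene's 3′ end, had 2892 in the thresholded list, 1693 in replicate 1 and 1295 in replicate 2. It was the highest summit of the replicate 2 list on ce11, nearly level with the ND5 summit at position 12453 (1295.36 against 1294.9). On ce10 the order in replicate 2 was reversed, with 1324.95 in ND5 and 1290.57 in COX1. The tRNA-Met gene (WBGene00014468; chrM:9478-9536) was the only tRNA gene of the 22 with a summit inside. Its summit at position 9498 had 2333 in the thresholded list, 1393 in replicate 1 and 946 in replicate 2. COX2 (WBGene00010965; chrM:9649-10348), whose protein takes electrons from cytochrome c, had summits at positions 9728 and 9933 with 1285 and 776. At the first of them replicate 1 had 958 and replicate 2 had no summit within 50 bp. At the second, replicate 1 had 196 and replicate 2 had 621. The ratio of replicate 2 to replicate 1 was thus 0.765 at the COX1 summit, 0.680 at the tRNA-Met summit and 3.17 at the last COX2 summit, beside a median of 0.676 over nuclear summits.

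COX1 also held the weakest mitochondrial summit of the thresholded list on ce11. At position 8354 the signal was 126, with a summit of 250.02 at a distance of 49 bp in replicate 2 and none nearby in replicate 1. A summit near the start of the gene, at position 7847, had 169.9; the nearest was 14 bp away with 149 in replicate 1 and 69 bp away with 62.9 in replicate 2. Signal inside this single gene thus spanned most of the range seen over the genome. The other cytochrome c oxidase gene, COX3 (WBGene00010962; chrM:5678-6449), encodes a subunit without redox centres. It held 1 thresholded summit, at position 5819 with 823. In replicate 2 it held 3 summits with 457, 604 and 363. Replicate 1 had no summit inside COX3 on ce11, where its regions together covered 66.7% of the gene; its list on ce10 held a COX3 summit at position 5817 with 413.

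Among the 7 complex I genes, 5 held a thresholded summit. ND5 (WBGene00010967; chrM:11691-13272), which encodes a large proton-pumping subunit, had the highest, at position 12453 with 2703. The replicates agreed closely in position there, with 1436 at a distance of 4 bp in replicate 1 and 1295 at the same base in replicate 2. These summits ranked 3 and 2 in their own lists. A further ND5 summit at position 12652 had 1309, with 537 in replicate 1 and 625 in replicate 2. ND4 (WBGene00010963; chrM:6506-7808), which encodes another proton-pumping subunit, held summits at positions 7025 and 7648 with 1226 and 1388. The first had a counterpart with 1018 in replicate 2 and none within 50 bp in replicate 1. The second had a counterpart 2 bp away with 1345 in replicate 1 and none within 50 bp in replicate 2. So both ND4 summits of the thresholded list rested on a close summit in a single replicate, a different one each time.

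The remaining complex I genes had lower or less repeatable signal. ND1 (WBGene00010959; chrM:1763-2635), whose protein lies near the quinone-binding site, had 1109.5 at position 2362. Replicate 2 held 2 summits in ND1, with 807 and 504, and replicate 1 held none, although its regions covered 87.2% of the gene. The nearest replicate 1 summit lay just past the end of ND1, at position 2650 in the first bases of ATP6, with 1241. ND2 (WBGene00010961; chrM:3389-4269), for another proton-pumping subunit, had 267 at position 4043, with 1174 in replicate 1 at a distance of 24 bp and 176 in replicate 2 at a distance of 350 bp. ND6 (WBGene00010957; chrM:113-549) had 514 at position 169, with 629 in replicate 2 at a distance of 31 bp and 229.9 in replicate 1 at a distance of 296 bp. The short genes ND4L and ND3 held no thresholded summit; each held a summit in replicate 1 only, with 392 in ND4L and 68.8 in ND3. ATP6 (WBGene00010960; chrM:2634-3235), the only ATP synthase gene on this genome, had 1451 at position 2822. Replicate 1 held 2 ATP6 summits with 1241 and 744, and replicate 2 held 2 with 573 and 121. The pooled relaxed list added a single mitochondrial summit to those of the thresholded list, in ATP6 at position 3021, with 75.9.

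**Figure D3:**
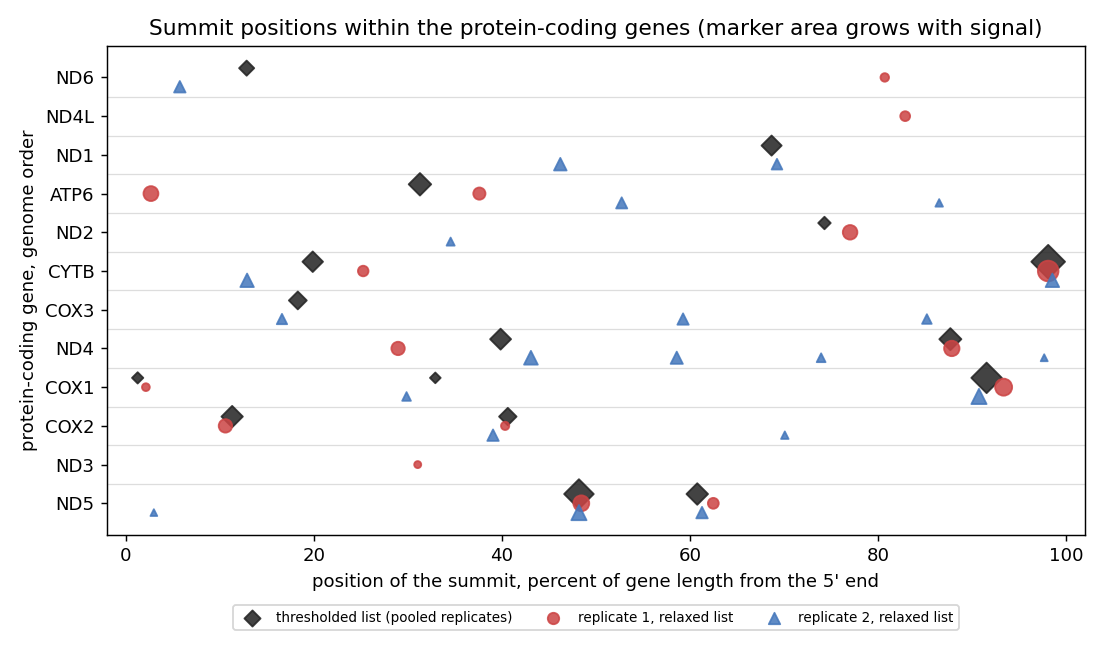
Position of each summit inside the 12 protein-coding genes, as percent of gene length from the 5′ end (horizontal axis), by gene in genome order (vertical axis); marker area grows with signal, and the lists are marked as black diamonds (thresholded), red circles (replicate 1) and blue triangles (replicate 2). The 3 lists coincide at the ends of CYTB and COX1 and in the middle of ND5, whereas in ND6 the replicate 1 summit lies far from the other two; replicate 1 has no marker in ND1 or COX3.

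Summits showed no single place within protein-coding genes. Of the 16, 7 lay in the 5′ part, 4 in the middle and 5 in the 3′ part of the gene (cut into 3 equal parts), from 1.25% to 98.1% of gene length. They were not gathered at tRNA genes either. The median distance from a thresholded summit to the nearest tRNA gene was 242 bp, against 289 bp over every position of the genome, and 2 of 21 summits (9.52%) lay within 50 bp of a tRNA gene, against 16.2% of positions. Of 17 distances between neighbouring summits in the same span, 6 lay within 40 bp of 200 bp. The same held for 6 of 9 in replicate 1 and 11 of 19 in replicate 2. The value of 200 bp was chosen after the distances were seen. It is also the lower end of their range, since the shortest distance was 199 bp in the thresholded list, 199 bp in replicate 1 and 200 bp in replicate 2. Whether the calling of summits sets a minimum spacing was not tested.

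Both rRNA genes lay wholly inside thresholded spans but differed between replicates. The s-rRNA gene (WBGene00014454; chrM:898-1593), for the RNA of the small mitochondrial ribosomal subunit, had summits at positions 1094 and 1353 with 963 and 219.9. Replicate 2 held 2 summits in it, with 1246 and 435, and replicate 1 held 1, with 227. The l-rRNA gene (WBGene00014472; chrM:10403-11354), for the RNA of the large subunit, had a single thresholded summit at position 10844 with 416. Replicate 2 held summits with 585 and 139 there, replicate 1 held none, and regions covered 27.9% of the gene in replicate 1 and 93.4% in replicate 2. Neither gene had a summit that both replicates place within 50 bp of a thresholded one.

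Although 21 tRNA genes held no summit, 21 of the 22 were touched by a thresholded span and 19 were covered whole. No region touched 8 of them in replicate 1 and 2 in replicate 2. The gene for tRNA-Met, the one with a summit, is shown in full on the plus strand (chrM:9478-9536), because its letters bear on the promoter words searched next.
tRNA-Met: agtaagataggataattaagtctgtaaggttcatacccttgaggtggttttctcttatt
Most nuclear tRNA genes carry internal promoter words for RNA polymerase III, whereas animal mitochondrial genes are transcribed by a separate polymerase, and most mitochondrial tRNAs of C. elegans lack the T arm in which one of these words lies. The word GTTCGA, taken from that arm and searched on both strands, was in none of the 22 mitochondrial tRNA genes and in 442 of 612 nuclear ones (72.2%). It did not occur anywhere in the mitochondrial genome, although it lay within 50 bp of 97 of 416 nuclear summits (23.3%). The word AGTGGT, of the other internal promoter element, was in no mitochondrial tRNA gene and in 282 nuclear ones (46.1%). It lay within 50 bp of 0 of 21 mitochondrial summits and of 73 nuclear summits (17.5%). Among adjoining windows of 101 bp, AGTGGT was in 2.94% of mitochondrial and 3.22% of nuclear windows, and GTTCGA in 3.73% of nuclear windows, so 0 of 21 for AGTGGT does not stand apart from mitochondrial sequence at large.

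The telomere repeat unit TTAGGC (or GCCTAA) occurred 4 times in the mitochondrial genome. It lay within 50 bp of 2 of 21 mitochondrial summits, those at position 9933 in COX2 and at position 10844 in l-rRNA, and of 18 of 416 nuclear summits (4.33%). Among adjoining windows of the same 101 bp, 2.21% of the mitochondrial windows and 2.64% of the nuclear windows held it. None of the 4 strongest mitochondrial summits had it within 50 bp. No searched word contains another, and a match describes letters only.

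The base composition of mitochondrial summits was close to that of the rest of the molecule, whereas nuclear summits were richer in G+C than nuclear sequence. In windows of 201 bp, mitochondrial summits had a median G+C content of 24.9% and all mitochondrial windows 23.9%, whereas nuclear summits had a median of 44.8% and adjoining nuclear windows 35.3%. The strongest summit, in CYTB, had 19.4%, and 81.5% of mitochondrial positions had as much or more; the ND5 summit at position 12453 had 32.3%, above 95.0% of positions. Across the 21 summits, signal and G+C content were weakly correlated (Pearson r = 0.13, Spearman rho = 0.08). The values were r = 0.01 over the 18 summits of replicate 1 and r = 0.23 over the 28 of replicate 2. These correlations describe summits that share a library and in part a span.

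**Figure D4:**
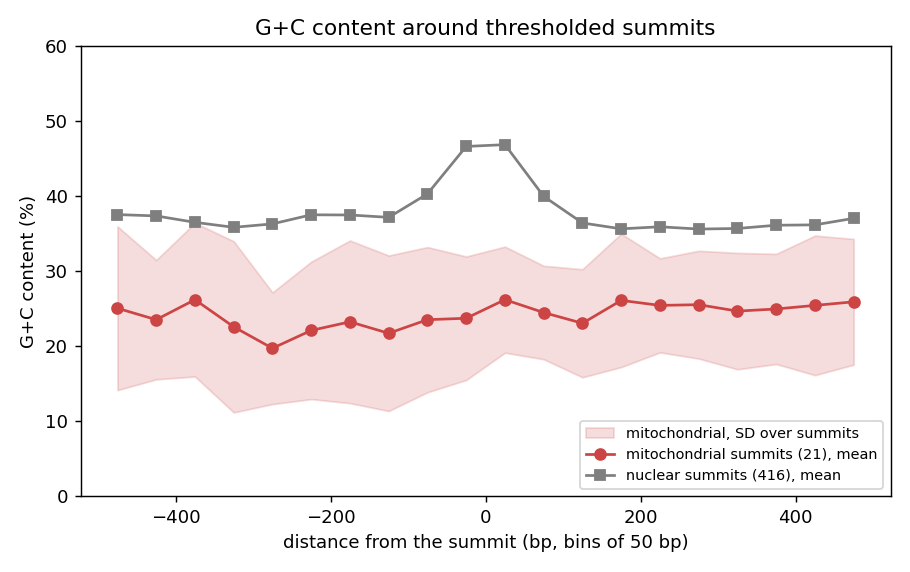
Mean G+C content (vertical axis, %) in bins of 50 bp by distance from the summit (horizontal axis, bp), for the 21 mitochondrial summits (red, with the SD over summits shaded) and the 416 nuclear summits (grey). The nuclear mean reaches 46.8% just beside the summit and is 37.5% at 175 bp before it and 35.6% at 175 bp after it; the mitochondrial mean stays between 19.7% and 26.2%.

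The AT-rich non-coding stretch (chrM:13329-13794) held a single weak summit. Its 466 bp have a G+C content of 6.87%, and its thresholded summit, at position 13736, had 133. Replicate 2 had a summit at the same base with 66.8, and in replicate 1 no region touched the stretch. The thresholded span around this summit (chrM:13550-13794) ended at the last base of the reference, and another span began at base 2. Whether this cut in the circle affects the width or signal there was not tested. The stretch holds a tandem repeat with a period of 43 bp, which runs without a mismatch over 209 bp (chrM:13406-13614), or 4.86 copies. The first copy of the unit (chrM:13406-13448, plus strand) has no G or C and is shown because copies of it recur in the part that regions mostly leave out.
repeat unit: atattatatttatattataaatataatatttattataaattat
Thresholded spans covered 31.1% of these 209 bp. Of the 13759 words of 36 bases in the mitochondrial genome, 178 occurred more than once within it and 12 also occurred in a nuclear chromosome, all of them starting in the AT-rich stretch. The word length was chosen here, since the read length is not given in the sources used. Every such word within 50 bp of a thresholded summit, at all 21 summits, occurred once in the whole genome.

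The replicates agreed in position at the 4 summits of highest thresholded signal and differed in the placing of most others. Strong summits of a single replicate were among those that differed. The s-rRNA summit at 1066, which ranked 3 in replicate 2 with 1246, had none within 50 bp in replicate 1. The replicate 1 summits at ranks 5, 6 and 7, in ND4 (1345), ATP6 (1241) and ND2 (1174), had none within 50 bp in replicate 2. Only 6 of 21 mitochondrial summits (28.6%) had a summit within 50 bp in both replicates, whereas 277 of 416 nuclear summits (66.6%) did. The 6 were CYTB at 5600, COX1 at 9293, tRNA-Met at 9498, COX2 at 9933 and both ND5 summits, and they included the 4 of highest thresholded signal. Of all 21, 12 had a counterpart in replicate 1 and 14 in replicate 2, and 1, in CYTB at 4726, had none that close in either. At the 6 shared summits the replicate 2 signal was 0.370 to 3.17 times that of replicate 1, with a median of 0.833; at nuclear summits the median was 0.676. The thresholded signal at these 6 was 0.950 to 1.13 times the sum of the replicate values, close to a sum over both. A high thresholded signal and a close placing in both replicates are therefore not independent. The difference in the share of common summits between mitochondrial and nuclear regions was not tested, and mitochondrial rows share wide spans whereas nuclear rows rarely do.

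**Figure D5:**
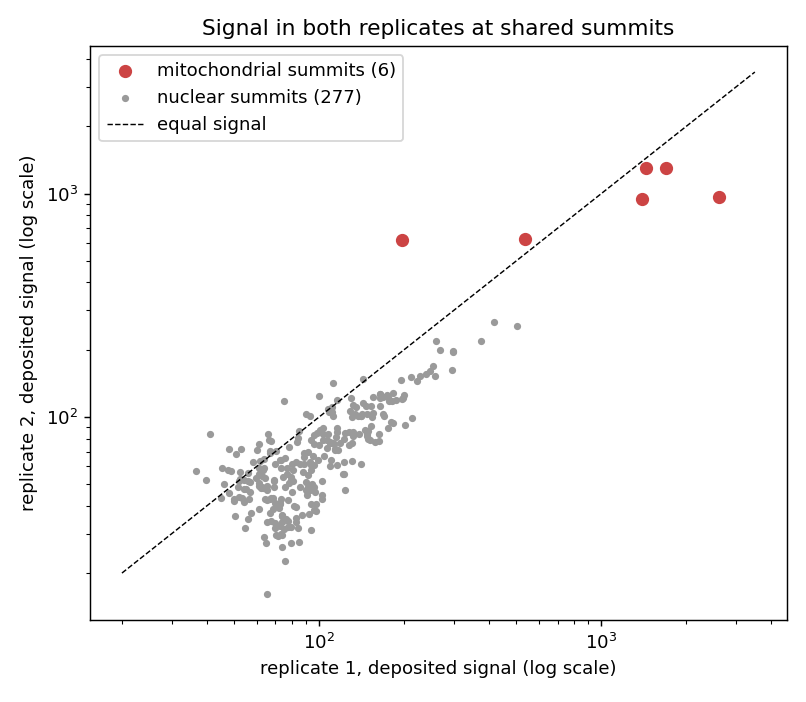
Signal in replicate 2 (vertical axis, log scale) against signal in replicate 1 (horizontal axis, log scale) at thresholded summits with a summit within 50 bp in both, for 6 mitochondrial (red) and 277 nuclear (grey) summits; the dashed line marks equal signal. The mitochondrial points lie above the nuclear ones in replicate 2, and 4 of them lie between 1393 and 2618 in replicate 1.

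The mitochondrial summits recurred in the list that was called on assembly ce10. It also held 21, and 20 of those on ce11 had a ce10 summit within 23 bp, with 18 of these within 15% of the same signal. The exceptions were COX3, where the ce10 value was 257 against 823 on ce11, and the weakest COX1 summit, with 170.5 on ce10 against 126 on ce11. The COX1 summit at position 7847 had no counterpart in the thresholded ce10 list. The pooled relaxed list on ce10 held one at position 7851, with 64.1. The thresholded ce10 list held another COX3 summit with 107. Regions end at base 13794 in both assemblies, and ce10 positions were placed on the WBcel235 gene models without conversion; whether both assemblies have the same mitochondrial sequence was not examined.

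A summit near the start was uncommon among nuclear genes for proteins that work in mitochondria, as it was among all nuclear protein-coding genes. None of 70 genes for mitochondrial ribosomal proteins had a thresholded summit within 500 bp of the start. With 3 genes set as the upper limit for a count of 0, and genes taken as independent, this allows a share of up to 4.29%. That limit is approximate. Among 61 genes for nuclear subunits of the respiratory chain and ATP synthase, 2 had one (3.28%), and among 6 genes for the upkeep and transcription of mitochondrial DNA, 1 had one (16.7%). The share over all nuclear protein-coding genes was 1.04%, and with counts of 0 to 2 genes these lists cannot be set apart from it. The 3 genes were mtss-1, cox-5B and ndua-2. The summit near mtss-1 (WBGene00019800), which encodes the mitochondrial single-stranded DNA-binding protein, had 147 in the thresholded list, 85.6 in replicate 1 and 61.8 in replicate 2, at 211 bp from the start. The summit near cox-5B (WBGene00000371), a nuclear subunit of complex IV, had 107, with 72.7 in replicate 1 and 32.4 in replicate 2. The complex I gene ndua-2 (WBGene00013406) had summits with 244 and 126 at 341 bp and 141 bp from its start, and the stronger was nearer to the start of dnj-29, at 187 bp. Each of these nuclear values was below the median mitochondrial signal, as was every nuclear summit of the thresholded list.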

How the data were processed

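The deposited files are region lists in narrowPeak format for assemblies ce11 and ce10: relaxed lists per replicate and for pooled replicates, and a list thresholded for reproducibility, per the file headers and notes. The signal value and the −log10 q-value of each region are the authors' deposited values. The aligner, the peak caller and the threshold were not given in the sources used here. The depth of the libraries is unknown, so intervals that need it were left out.

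Summits were taken as start plus offset, 1-based, and assigned to the gene they lie in or nearest to, around the circle, on Ensembl WBcel235 gene models; the names of tRNAs came from the RefSeq annotation by overlap. The code of the assignment was checked on simulated positions inside genes and on a single position near the end of the circle. The check inside genes used the rule of the assignment itself. A summit was shared when both replicates had one within 50 bp. Words of 6 bases were searched in windows of 101 bp. Every mitochondrial gene is accounted for; nuclear genes were named from 3 lists by a summit within 500 bp. No test was made. Python 3.11.15, pandas 2.3.3, numpy 2.4.6, scipy 1.17.1 and matplotlib 3.10.9 were used. The members, lists and searched words were chosen with earlier results of these data known.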

Additional observations from a re-analysis of the deposited data

How the results depend on the processing

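Of 42 alternatives over 8 results, 25 stayed within the replicate spread or, for counts, within 1.5 times, and 17 moved. With either replicate's own list, coverage of the mitochondrial genome was 70.0% to 82.8% (92.8% in the thresholded list), the ratio of highest signals 4.87 to 5.23, the mitochondrial share of the top regions 52% to 84%, the ratio of medians 33.9 to 36.7 (8.28 in the thresholded list), the share of summits in protein-coding genes 78.6% to 88.9%, and the genes with a summit 12 to 13. In the pooled relaxed list the ratio of medians was 33.8, because the list adds weak nuclear regions. Only the summits above the mitochondrial median left 7 genes with a summit and put 90.0% of summits in protein-coding genes; counting genes overlapped by a region gave 35. The mitochondrial share was 32% of the top 50 regions and 12% when overlapping regions were merged, which also raised the ratio of medians to 16.0. Shared summits numbered 3 within 25 bp and 0 when regions had to overlap by 50% of each, against 6. Within 1000 bp, 5 nuclear genes for mitochondrial proteins had a summit, against 3. RefSeq gene models, added after the data were seen, gave the same count of 13 genes. No paired analysis was possible because the samples form a single group.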

Other observations

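The ND2 summit at position 4043 had 267 in the thresholded list, below the 1174 that replicate 1 alone had 24 bp away, whereas at the 6 shared mitochondrial summits the thresholded value was close to the sum of both replicates. Thresholded values were also below that of a summit within 50 bp in one replicate at ND6 (514 against 629 in replicate 2), at both s-rRNA summits (963 against 1246 in replicate 2, and 219.9 against 227 in replicate 1), at COX1 position 8354 (126 against 250.02 in replicate 2) and at l-rRNA (416 against 585 in replicate 2). The word TAGTTA (or TAACTA) occurred 26 times in the mitochondrial genome and was held by 17.6% of its adjoining windows of 101 bp, against 3.96% of nuclear windows; it lay within 50 bp of 4 of 21 mitochondrial summits, in ND1, COX1, COX2 and ND5, and of 7 of 416 nuclear summits (1.68%). No nuclear position that holds a 36-base word of the mitochondrial genome, 2987 in all, lay in a thresholded or pooled relaxed region.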
